A study of Saccharomyces cerevisiae with 167 samples.

Results

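Of the 6269 open reading frames (ORFs) measured in heat-shocked budding yeast, 83 had an mRNA that was high 300 s after the shock and had come down again by 900 s. A gene was taken as transiently induced where the wild-type mRNA on the 300 s array exceeded both the mean before heat shock and the mean at 900 s by at least 1 on the log2 scale, after each array had been centred on the median of its ORF probes. The genes were thus chosen by their mRNA values in the wild-type time course, in which 300 s is a single array, and the wild-type mRNA values of these genes are given below as a description with no test. In yeast a sudden rise in temperature switches on a pair of broad transcription programmes. Hsf1 drives genes of protein chaperones, and Msn2 with Msn4 drives a general stress response that includes the making of trehalose and glycogen, the storage sugars of yeast. Much of this response is transient, with mRNA levels that peak early and settle as the cells adapt. SWI/SNF is a chromatin remodelling complex that moves or evicts nucleosomes, and Snf2 is its ATPase. Histone H4 is a core protein of every nucleosome, and the acetylation of its tail is a mark of active chromatin.

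The study (167 dual-colour arrays, 13029 probes each) followed Saccharomyces cerevisiae through heat shock, with mRNA, H4, acetylated H4 and Snf2 binding as readouts. Every value is a log2 ratio of the Cy5 to the Cy3 channel. The mRNA time course compared poly(A) RNA of wild-type and snf2 deletion cells with control RNA of unstressed wild-type cells. Wild type gave 2 arrays before heat shock, 1 each at 30, 60 and 300 s and 2 at 900 s, and the snf2 deletion gave 2 before heat shock and 1 at each later time. On 3 separate arrays total RNA of heat-shocked cells was set directly against that of unstressed cells, and 3 arrays each did the same for H4 and acetylated H4 chromatin of cells at 39°C and 30°C. The labels used here do not say how long the cells of these direct arrays were heated. H4 and acetylated H4 of cells at 30°C and at 39°C were also set against sonicated genomic DNA, with 3 arrays per state. Chromatin time courses of wild-type and snf2 deletion cells ran from T0 to T900 with 2 or 3 sets per strain and time, against genomic DNA of unstressed cells. Their codes carry no unit in the labels. H4 and Snf2 each carried a Myc tag and were taken from formaldehyde-fixed chromatin by an anti-Myc antibody. Snf2 was set against input DNA on 3 arrays of cells at 30°C and 5 of heat-shocked cells. Stationary-phase cells were set against log-phase cells with 3 arrays per readout. Single arrays compared deletions of SNF2, CHD1, ISW1 and ISW2 with wild type, at mid-log growth and at 39°C. Other single arrays compared 39°C with 30°C within wild type and within each of these deletions. Nothing in the labels says whether the arrays of 1 group stand for different cultures, so p-values measure only the spread between arrays, which may be technical. In these bulk samples fewer cells with a transcript and less transcript per cell cannot be told apart.

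The deleted gene was checked first. On the mRNA time course the SNF2 probe read 0.23 and 0.56 before heat shock and -0.09 at 300 s in wild type, against -0.08, -0.09 and -0.01 on the arrays labelled snf2 deletion, so this probe did not separate the strains at 300 s. On the chromatin arrays the same probe lay between -0.12 and 0.42 for H4 in wild type and between -2.80 and -0.85 in the deletion. For acetylated H4 it lay between -1.52 and -0.25 in wild type and between -3.09 and -1.20 in the deletion, so these ranges overlapped. On the single expression arrays SNF2 was at -1.50 in its own deletion at 39°C, against -0.63 to -0.50 in the other 3 deletions, but at -0.52 in its own deletion at mid-log growth it lay no lower than in the CHD1 deletion (-0.54), so the probe did not mark that array. An array of the acetylated H4 course, set 2 of the deletion at T300, had its SNF2 probe at -1.34, near the -1.11 of its wild-type counterpart. The promoter results at T300 in the deletion are given with and without this array. Set 2 of the deletion at T15 was also near its counterpart, at -1.39 against -1.07. Heat shock itself was visible in the wild-type course: HSP12, HSP82, HSP104, SSA4 and CTT1, genes of chaperones and of catalase, were between 2.79 and 4.63 at 300 s. They were still between 3.18 and 4.25 at 900 s, so none of these 5 met the rule for a transient response. Actin (ACT1) was at 0.50, 0.91 and 0.84 before heat shock, at 300 s and at 900 s.

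In wild type the 83 genes had a median mRNA level of -0.08 before heat shock, 0.03 at 30 s, 0.08 at 60 s, 1.57 at 300 s and 0.19 at 900 s. At 30 s none of the 83 stood 1 or more above its starting level on the log2 scale, and at 60 s 1 did (YDR053W). At 900 s 18 of the 83 were still at least 1 above the start (6.32% of all ORFs were). Levels at 300 s ran from 0.55 for HXT4 to 4.28 for BDH2, so the group holds both strong and slight responses. The members nearest the limit were MEP1, SWI6 and TDA10, with a smaller difference of 1.0088, 1.0054 and 1.0015. YHC1, YCL074W and ATG7 stayed just outside with 0.9984, 0.9936 and 0.9904. In all 467 ORFs met the first condition and 354 the second.

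**Figure D1:**
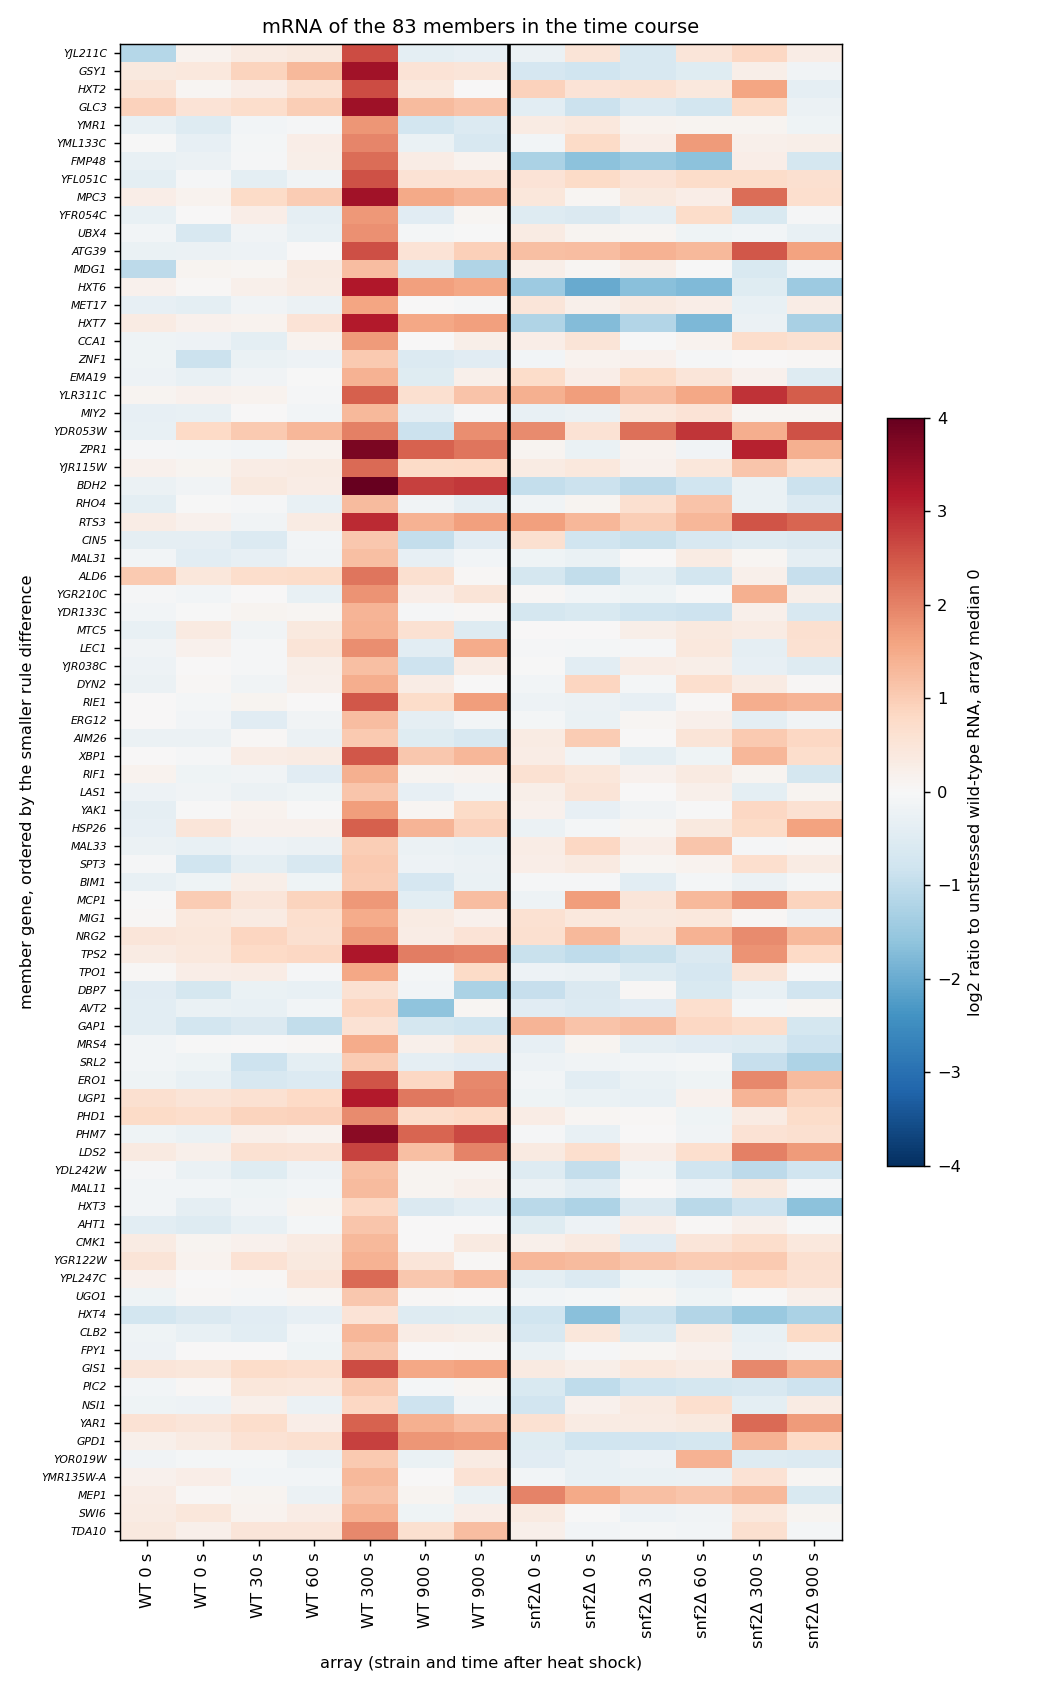
Heat map of the mRNA of all 83 genes (rows, ordered by the smaller of the differences that chose them) on the 13 arrays of the time course (columns, wild type left of the black line and snf2 deletion right of it). Colour is the log2 ratio to unstressed wild-type RNA with each array's ORF median at 0; the wild-type 300 s column, a single array that chose the genes, is red throughout, with levels from 0.55 to 4.28, and the deletion's 300 s column has a median of 0.32.

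Members that act in storage carbohydrate and glycerol synthesis are described first. GSY1, a glycogen synthase, was at 0.40 and 0.43 on the 2 arrays before heat shock, 0.88 at 30 s, 1.29 at 60 s, 3.37 at 300 s and 0.56 and 0.48 on the 2 arrays at 900 s. Its level at 900 s had returned to the start within 0.11. GLC3, the glycogen branching enzyme, was at 0.73 before heat shock, 3.38 at 300 s and 1.21 at 900 s. TPS2, the phosphatase that finishes trehalose synthesis, was at 0.37 before heat shock, 3.22 at 300 s and 2.01 at 900 s, and thus stayed well above its start. UGP1, which makes the UDP-glucose used for both storage sugars, was at 0.58 before heat shock, 3.17 at 300 s and 2.05 at 900 s. GPD1, glycerol-3-phosphate dehydrogenase of glycerol synthesis, was at 0.27 before heat shock, 2.74 at 300 s and 1.72 at 900 s. Both glycogen genes came closer to their starting level by 900 s than TPS2, UGP1 and GPD1 did.

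Sugar transport supplied 7 members and its regulation more. HXT2, a hexose transporter, was at 0.30 before heat shock, 2.62 at 300 s and 0.21 at 900 s. HXT6 was at 0.11 before heat shock, 3.21 at 300 s and 1.59 at 900 s, and HXT7 at 0.25 before heat shock, 3.17 at 300 s and 1.60 at 900 s. HXT6 and HXT7 are near-identical neighbours, so their probes may read each other's transcript and the pair is uncertain as separate results. HXT3 and HXT4 were low at 300 s, with levels of 0.84 and 0.55. The maltose permease genes MAL31 and MAL11, which are close paralogs with the same uncertainty, reached 1.199 and 1.26, and MAL33, an activator of maltose genes, reached 0.98. MIG1, the repressor that acts when glucose is plentiful, was at 0.23 before heat shock, 1.48 at 300 s and 0.25 at 900 s. NRG2, another repressor of glucose-repressed genes, was at 0.47 before heat shock, 1.70 at 300 s and 0.43 at 900 s.

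The highest 300 s level belonged to BDH2, a putative alcohol dehydrogenase of the butanediol dehydrogenase family, which was at -0.23 and -0.15 on the 2 arrays before heat shock, 0.40 at 30 s, 0.29 at 60 s, 4.28 at 300 s and 2.75 and 2.83 on the 2 arrays at 900 s. ZPR1, a zinc-finger protein that helps fold a translation elongation factor, was at -0.05 and -0.09 on the 2 arrays before heat shock, -0.10 at 30 s, 0.15 at 60 s, 3.75 at 300 s and 2.37 and 2.13 on the 2 arrays at 900 s. PHM7, a gene of unknown molecular function, was at -0.21 before heat shock, 3.60 at 300 s and 2.49 at 900 s. MPC3, a subunit of the mitochondrial pyruvate carrier, was at 0.20 before heat shock, 3.37 at 300 s and 1.43 at 900 s. Of 34 listed chaperone and Hsf1 target genes 29 were at least 1 above the start at 300 s, and HSP26, a small heat shock protein, was the single member among them. HSP26 was at -0.32 and 0.48 on the 2 arrays before heat shock, 0.16 at 30 s, 0.18 at 60 s, 2.39 at 300 s and 1.35 and 0.91 on the 2 arrays at 900 s. ERO1, which forms disulphide bonds in the endoplasmic reticulum, was at -0.24 before heat shock, 2.52 at 300 s and 1.39 at 900 s, and YAR1, a chaperone of a ribosomal protein, at 0.53 before heat shock, 2.36 at 300 s and 1.33 at 900 s.

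Transcription factors included XBP1, a stress-induced repressor, at -0.01 before heat shock, 2.49 at 300 s and 1.204 at 900 s, and GIS1, a factor of nutrient limitation, at 0.46 before heat shock, 2.61 at 300 s and 1.57 at 900 s. PHD1 and CIN5 reached 1.88 and 1.07. Nutrient uptake added GAP1, the general amino acid permease, at -0.58 before heat shock, 0.59 at 300 s and -0.75 at 900 s, and MEP1, an ammonium permease, at 0.17 before heat shock, 1.18 at 300 s and -0.09 at 900 s. YJL211C had the largest smaller-of-both difference, with a level of -0.50 before heat shock, 2.61 at 300 s and -0.36 at 900 s. It is 1 of 6 members that could not be matched to the RefSeq annotation of assembly R64, the others being YLR311C, YDR053W, YDR133C, YJR038C and YMR135W-A. Several genes came most or all of the way back to their start. YMR1, a phosphatase of phosphatidylinositol 3-phosphate, was at -0.41 before heat shock, 1.75 at 300 s and -0.65 at 900 s, UBX4, a cofactor of the Cdc48 ATPase, at -0.38 before heat shock, 1.82 at 300 s and -0.05 at 900 s, and YML133C at -0.17 before heat shock, 1.96 at 300 s and -0.46 at 900 s. FMP48 was at -0.27 before heat shock, 2.23 at 300 s and 0.21 at 900 s, and MET17, an enzyme of methionine and cysteine synthesis, at -0.35 before heat shock, 1.57 at 300 s and -0.01 at 900 s. ATG39, a receptor for autophagy of the endoplasmic reticulum, stayed well above its start, at -0.25 before heat shock, 2.57 at 300 s and 0.76 at 900 s. YFL051C, YFR054C and MDG1 were the others of the 15 with the largest smaller difference, at 300 s levels of 2.54, 1.73 and 1.23. Against the gene lists used here, 28 members were in at least 1 of 33 lists and 55 in none. The list of Msn2 and Msn4 targets held 6 members of 40 genes, that of sugar uptake and use 8 of 34, that of stress and growth transcription factors 5 of 50, nitrogen uptake 2 of 34 and genes described as Snf2-dependent 4 of 30. Over the whole array 83 of 6269 ORFs were members, and 20 lists held no member. Among array neighbours 8 pairs of members lay side by side, HXT7 with HXT6, MAL33 with MAL31, CMK1 with GSY1, and YGR210C with ZPR1 among them. In the R64 annotation AIM26 lies next to UGP1.

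The 3 direct heat-shock arrays played no part in choosing the genes. Of the 83 members, 24 (28.9%) rose and 7 (8.43%) fell at an adjusted p under 0.05, where 17.0% of all ORFs tested rose and 17.6% fell, and the rest did not pass the test. The median of the members lay 0.14 ± 0.02 (SD, n = 3) above the ORF median. HSP26 was highest, at 4.04, 3.23 and 3.58, a mean of 3.62 ± 0.41 (SD, n = 3). ERO1 was at 2.82, 2.39 and 2.63, a mean of 2.61 ± 0.22 (SD, n = 3). All 3 arrays of each of these genes lay far above those of any member that was not called. ZPR1 followed with 2.39, 2.50 and 2.23, a mean of 2.38 ± 0.13 (SD, n = 3). RTS3, a putative subunit of a protein phosphatase, was at 1.89, 2.12 and 1.72, and YAR1 at 1.74, 2.02 and 1.73. BDH2, the strongest responder in the time course, was at 1.32, 1.35 and 1.29, so its rise here was far smaller but the arrays hardly differed.

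The largest fall was that of GSY1, at -1.66, -1.12 and -1.59, a mean of -1.46 ± 0.29 (SD, n = 3). The same gene had stood at 3.37 at 300 s in the time course and at 1.75 on the single array of wild type at 39°C against 30°C, so its direction differed between these arrays. HXT3 fell as well, with -0.83, -0.87 and -1.13, and so did DBP7, an RNA helicase of ribosome assembly, with -1.39, -0.26 and -0.64. HXT4 (-0.71 ± 0.15 (SD, n = 3)) and MAL31 (-0.58 ± 0.22 (SD, n = 3)) completed the 5 largest falls. Within the sugar group HXT2, HXT6 and HXT7 rose, whereas HXT3, HXT4 and MAL31 fell. The trehalose gene TPS2 was at 0.52, 0.35 and 0.08 and GLC3 at -0.47, -0.14 and -0.55, and neither passed the test. Of the listed Msn2 and Msn4 targets 31 of 40 rose and 1 fell, and of the sugar list 8 rose and 6 fell of 34; the medians of these lists were 1.91 and -0.05, beside -0.02 over all ORFs. The transcription factor list had 11 of 50 rising and 4 falling, with a median of 0.13, the nitrogen list 9 and 3 of 34, with 0.25, and the list of Snf2-dependent genes 12 and 3 of 30, with 0.32. Without replicate 1 the count of members called was 19 and without replicate 2 it was 42, against 31 with all arrays.

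**Figure D2:**
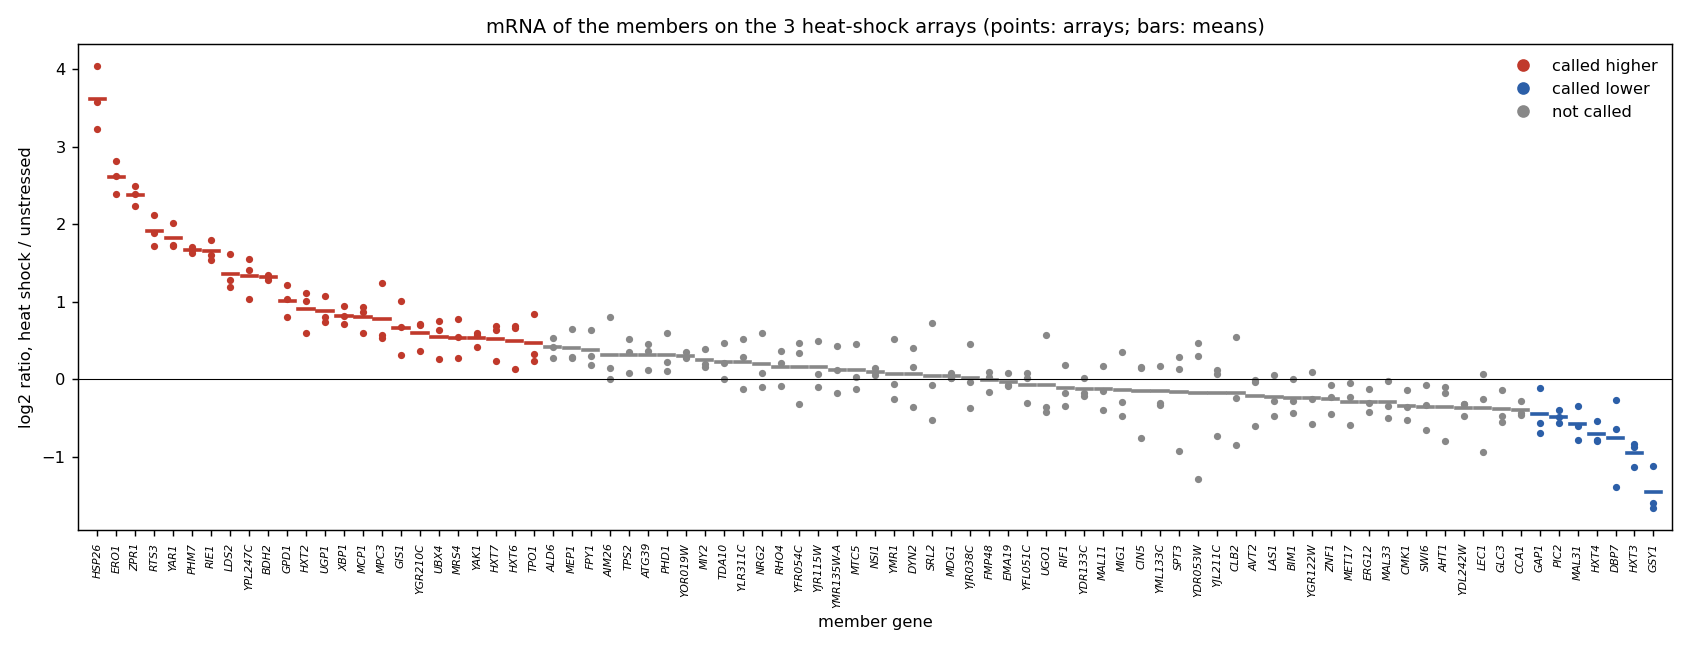
mRNA of the 83 members on the 3 direct heat-shock arrays, as log2 ratio of heat-shocked to unstressed cells, ordered by the mean. Points are arrays and bars their means, red for the 24 members called higher, blue for the 7 called lower and grey for the rest; HSP26 is at the left with a mean of 3.62 and GSY1 at the right with -1.46.

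In the cells labelled snf2 deletion the transient peak was mostly small or missing. At 300 s 57 of the 83 members were at least 1 lower on the log2 scale in the deletion than in wild type, and none was at least 1 higher; over all ORFs 5.45% were as much lower and 3.66% as much higher. Since the wild-type 300 s array chose the members, this gap is a description and was not tested. The median level of the members at 300 s was 0.32 in the deletion and 1.57 in wild type. The gap was widest for BDH2, at -0.96 and -0.87 before heat shock, -0.27 at 300 s and -0.86 at 900 s in the deletion, and differed from wild type by -4.55 at 300 s. For HXT6 and HXT7 the deletion minus wild type was -3.70 and -3.41, for GSY1 -3.12 and for PHM7 -3.04. Of these, HXT6 was low from the start in the deletion, at -1.44 and -2.01 before heat shock, and it was not alone. The deletion minus wild type before heat shock was -1.84 for HXT6, -1.72 for HXT7, -1.15 for GSY1, -0.73 for BDH2 and 0.03 for PHM7. At the other end YLR311C, NRG2, MEP1, GAP1 and MCP1 were between 0.07 and 0.48 higher in the deletion at 300 s. Before heat shock 5 members were at least 1 higher in the deletion and 7 at least 1 lower (1.98% and 2.54% of all ORFs).

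The deletion's own course did not enter the choice and was tested against its own start. From 0 to 300 s 22 of 83 members (26.5%) rose and none fell, where 4.17% of all ORFs rose and 2.68% fell. ZPR1 rose most, with 0.12 and -0.26 before heat shock, 3.07 at 300 s and 1.43 at 900 s, a difference of 3.14 (SE 0.24, adjusted p = 0.00215). TPS2 was at -0.89 and -1.01 before heat shock, 1.79 at 300 s and 0.78 at 900 s, a difference of 2.73 (SE 0.19, adjusted p = 0.00209). For these genes the 300 s value was above both arrays taken before heat shock. ERO1, GPD1 and MPC3 followed with differences of 2.19 (SE 0.42, adjusted p = 0.031), 2.02 (SE 0.21, adjusted p = 0.00577) and 1.97 (SE 0.23, adjusted p = 0.00864). GSY1 rose as well, by 0.98 from -0.66 and -0.80 to 0.24, to a level below that of wild type before heat shock. BDH2 did not pass the test. Of the listed Msn2 and Msn4 targets 19 of 40 rose in the deletion and none fell, of the sugar list 2 of 34 rose, of the transcription factors 4 of 50 rose and 1 fell, and of the nitrogen list 1 of 34 fell. Of the 24 members that rose on the direct heat-shock arrays and the 22 that rose here, 15 were the same (62.5% of the first list and 68.2% of the second). The single 300 s array is assumed in this test to vary like the other times, and the count fell to between 7 and 11 when either array before heat shock was left out, in either strain. It fell further when the arrays were scaled by the median absolute deviation.

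The return by 900 s is part of what chose the members in wild type, so no comparison of it with the deletion is drawn. In the deletion 300 s and 900 s are 1 array each, and none of the 6262 ORFs tested passed between them, members included; at an unadjusted p under 0.05, 17 members were higher at 300 s and 1 lower (6.18% and 3.66% of all ORFs). The selection rule applied to the deletion's arrays took in 49 of 6262 ORFs (0.782%), and 6 of these were members: MPC3, HXT7, ZPR1, ALD6, YGR210C and TPS2. From 0 to 900 s 9 members rose in the deletion and 4 fell (3.99% and 5.3% of all ORFs). MEP1 and GAP1, the nitrogen permeases, were among those that fell, MEP1 from 1.99 and 1.502 to -0.62 and GAP1 from 1.36 and 1.15 to -0.69. Both started above wild type, where MEP1 was at 0.30 and 0.04 and GAP1 at -0.42 and -0.73 before heat shock. On the single array labelled SNF2 deletion against wild type at mid-log growth, 20 members were 1 or more higher and 2 were 1 or more lower (4.49% and 4.36% of all ORFs). FMP48, RTS3 and TPS2 were highest there, at 2.96, 2.81 and 2.43. In the time course FMP48 and TPS2 had instead been below wild type before heat shock, at -1.45 and -0.95 in the deletion. At 39°C 7 members were 1 or more higher and 10 1 or more lower in the deletion (5.33% and 6.48%), with HXT6 and HXT7 at -1.43 and -1.44. These arrays have no replicate.

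At the promoters of these genes heat shock lowered H4 more often than it raised it. Of the 83 members 73 had a promoter probe, 70 distinct probes in all, and 28 of these were shared with a divergent or neighbouring gene; a shared probe is named below with both genes. At the promoters 20 of 70 probes (28.6%) lost H4 and 7 (10.0%) gained it, where 13.7% of all promoter probes lost and 8.47% gained. Without centring the arrays the calls were 17 lower and 11 higher. The largest loss was at the promoter between YAR1 and HSP82, an Hsp90 gene that is no member, with -1.49, -1.47 and -1.37, a mean of -1.44 (SE 0.06, adjusted p = 6.7e-05). AIM26 was at -0.95, -1.45 and -1.23, a mean of -1.21 (SE 0.10, adjusted p = 0.000629), and HSP26 at -1.37, -1.20 and -0.75, a mean of -1.10 (SE 0.11, adjusted p = 0.0019). At these promoters all 3 arrays were negative. The promoter between YGR210C and ZPR1, both members, was at -0.91, -1.27 and -0.86, and that of RIE1, at -1.06, -0.85 and -0.89. Gains were smaller, the largest being 0.55 at CCA1/RPH1 (0.36, 0.63 and 0.67), with 0.35 at ALD6 and UGO1/RPL27B, 0.34 at FPY1 and 0.26 at UBX4/AVO2.

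Across the coding regions 16 of 83 ORF probes (19.3%) lost H4 and 7 (8.43%) gained it, against 8.82% and 11.2% of all ORFs. Without centring they were 16 lower and 15 higher, so the balance over the ORFs depends on the centring. AIM26 lost most, at -1.07, -1.39 and -1.04, a mean of -1.17 (SE 0.08, adjusted p = 0.000375). ZPR1 was at -1.06, -1.24 and -0.82, and ERO1 at -0.76, -0.73 and -0.59. UGP1 and GPD1, of sugar and glycerol metabolism, completed the 5 largest losses with means of -0.68 (SE 0.07, adjusted p = 0.00217) and -0.66 (SE 0.10, adjusted p = 0.0074). Of the 24 members whose mRNA rose on the direct arrays and the 16 that lost H4 over the ORF, 11 were the same (45.8% and 68.8%). CLB2, a mitotic cyclin, gained H4 over its ORF, by 0.50 (SE 0.11, adjusted p = 0.0243), and lost it at its promoter, with -0.57 (SE 0.12, adjusted p = 0.0224). HXT3, whose mRNA fell, gained H4 over the ORF, by 0.33 (SE 0.06, adjusted p = 0.0122), and PHD1, NRG2 and YGR122W gained 0.32, 0.30 and 0.27. Without replicate 2 the calls were 14 at promoters and 13 at ORFs, against 27 and 23 with all arrays, and without replicate 3 the ORF calls were 35.

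Acetylated H4 also fell at many of these promoters. Of the 70 promoter probes 21 (30.0%) fell and 5 (7.14%) rose, against 19.1% and 9.32% of all promoter probes, and of the ORFs 17 (20.5%) fell and 8 (9.64%) rose, against 11.3% and 13.8%. HSP26 fell most, with -1.50, -1.47 and -1.19, a mean of -1.39 (SE 0.10, adjusted p = 0.000356). RIE1 was at -1.29, -1.36 and -1.30 and YAR1/HSP82 at -1.26, -1.48 and -1.06. TPS2 was at -1.02, -1.59 and -0.88 and BDH2 at -0.98, -1.14 and -1.22. On these 5 promoters every array was negative. At MTC5 the level rose, with 0.20, 0.79 and 0.67, although H4 there was 0.17, 0.16 and -0.05 and did not pass the test; FPY1, ERG12/HFA1, YOR019W and TDA10 rose by 0.44, 0.41, 0.39 and 0.29. Of the 20 promoters that lost H4 and the 21 that lost acetylated H4, 11 were the same (55.0% and 52.4%). Across members the Spearman correlation of the H4 and acetylated H4 changes was 0.67 over 73 genes with a promoter probe, where genes can share a probe, and 0.79 over 83 ORFs. Without replicate 1 the promoter calls were 17, against 26 with all arrays.

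**Figure D3:**
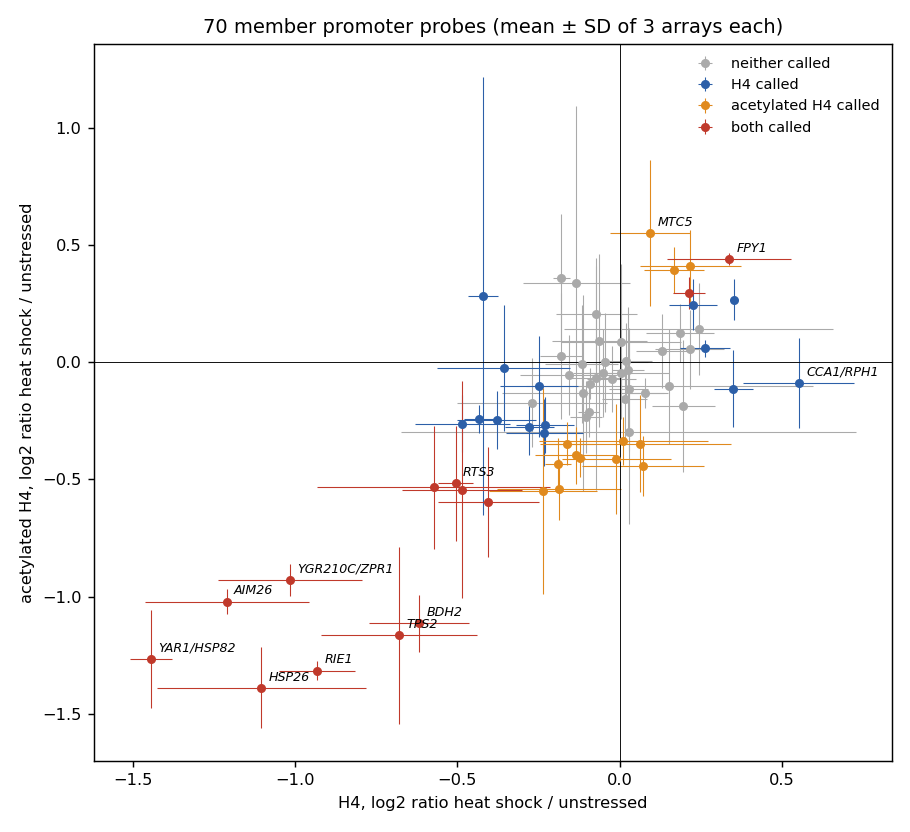
Change after heat shock at the 70 promoter probes of the members, H4 on the horizontal and acetylated H4 on the vertical axis, both as log2 ratio of heat-shocked to unstressed cells. Points are means and bars the SD of 3 arrays each, coloured by which readout was called; a group of 7 promoters led by YAR1/HSP82, AIM26 and HSP26 sits apart at the lower left, with H4 means from -1.44 to -0.62 and acetylated H4 means from -1.39 to -0.93.

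The arrays against genomic DNA measured the same states separately. For H4 2 of 70 promoters were lower at 39°C than at 30°C and none higher (0.166% and 0.0713% of all promoter probes). YAR1/HSP82 was at -0.13, -0.35 and -0.21 at 30°C and -1.68, -1.21 and -1.11 at 39°C, a difference of -1.10 (SE 0.16, adjusted p = 0.03). RIE1 was at 0.06, -0.11 and 0.08 and -1.0, -0.84 and -0.88, a difference of -0.92 (SE 0.12, adjusted p = 0.0231). No ORF of a member passed this test (0.0638% of all ORFs were higher and 0.303% lower), and at an unadjusted p under 0.05, 11 were lower and 2 higher (5.14% and 6.05% of all ORFs). At both promoters the states did not overlap, but neither call was left without replicate 2 or without replicate 3. For acetylated H4 8 of 70 promoters (11.4%) were lower and 1 was higher (4.73% and 1.17% of all), and 10 of 83 ORFs were lower and none higher (2.95% and 1.77%). RIE1 was at 0.44, 0.52 and 0.34 at 30°C and -0.90, -0.74 and -1.42 at 39°C, a difference of -1.45 (SE 0.18, adjusted p = 0.000928). TPS2 was at 0.47, 0.59 and 0.30 and -0.82, -0.77 and -1.17, a difference of -1.37 (SE 0.15, adjusted p = 0.00059). BDH2 was at 1.15, 0.94 and 0.87 and -0.08, 0.09 and -0.24, so that a promoter rich in acetylated H4 before heat shock came down to the level of the array median. MTC5 was the promoter that was higher at 39°C, by 0.62 (SE 0.15, adjusted p = 0.0366), and it was not called with the set as a block. Of the 8 lower promoters 7 were also among the 21 lower ones on the direct arrays (87.5% and 33.3%). Without replicate 1 the calls were 3 and without replicate 2 they were 4, against 9 with all arrays. RTS3 stood apart at 39°C, with 1.13, -1.60 and -1.25. The ratio of acetylated H4 to H4, measured on arrays of its own, passed the test at no member; at an unadjusted p under 0.05, 1 promoter was higher and 5 were lower at 39°C (6.49% and 9.8% of all promoter probes), as were 1 and 11 ORFs (5.49% and 8.74% of all ORFs, of which 0.016% were called higher).

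The chromatin time courses followed H4 from T0 to T900. In wild type the median of the members' promoters minus that of all promoters was -0.10 ± 0.01 at T0 (SD, n = 2), -0.21 ± 0.14 at T30, -0.16 ± 0.07 at T60, -0.27 ± 0.10 at T300 and -0.18 ± 0.05 at T900 (SD, n = 3 each). Over the ORFs it was -0.15 ± 0.09 at T30, -0.21 ± 0.05 at T60 and -0.21 ± 0.10 at T300 (SD, n = 3 each), so it was as low at T60 as at T300. In the deletion the gap at promoters was -0.05 ± 0.10 at T0 (SD, n = 2), -0.14 ± 0.05 at T300 and -0.06 ± 0.04 at T900 (SD, n = 3 each). The promoter of BDH2 was at -0.10 and -0.18 at T0, -1.67, -1.10 and -1.46 at T300 and -0.89, -0.53 and -1.24 at T900 in wild type. Its fall from T0 to T300 was -1.27 (SE 0.25, adjusted p = 0.0143), the single call among the 70 promoters (0.214% of all promoter probes fell and 0.0238% rose). The T300 arrays did not overlap those at T0. In the deletion the same promoter was at 0.18 and -0.03 at T0 and -0.47, -0.18 and -0.17 at T300. The T300 minus T0 difference was higher there by 0.92 (SE 0.36), a difference that did not pass the test (unadjusted p = 0.015, limma adjusted p = 0.9995). With the set as a block 5 promoters fell in wild type, BDH2, TPS2, MEP1/YGR122W, RTS3 and YAR1/HSP82. The share of all promoter probes called with the block is not given here, so this count cannot be set against the whole array. The same holds for the later block counts. In the fit without the block none was called when any 1 set was left out. TPS2 was at -0.57 and -0.51 at T0 and -1.85, -1.12 and -2.05 at T300 in wild type, and at 0.08 and -0.23 and -0.65, -0.69 and -1.38 in the deletion. Its T300 level was below T0 on every array in both strains, and it fell in both with the block (log2 differences of -1.13 and -0.82).

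Over the ORFs 5 of 83 members lost H4 from T0 to T300 in wild type and none gained it, where 0.367% of all ORFs lost it and none gained it. UGP1 lost most, from -0.57 and -0.41 at T0 to -2.16, -1.37 and -2.49 at T300, a difference of -1.52 (SE 0.29, adjusted p = 0.0102). At T900 it was higher again, at -0.85, -0.84 and -0.97, but still below both T0 arrays. BDH2 went from -0.04 and 0.45 to -2.07, -0.51 and -1.21, a difference of -1.47 (SE 0.32, adjusted p = 0.0296). AIM26, ALD6 (an aldehyde dehydrogenase) and ERO1 fell by 1.15 (SE 0.24, adjusted p = 0.0185), 1.03 (SE 0.23, adjusted p = 0.0325) and 0.76 (SE 0.17, adjusted p = 0.0493). ALD6 had shown no loss on the direct arrays, where its ORF was at 0.10, 0.17 and 0.39. In the deletion UGP1 went from -0.01 and -0.27 to -0.97, -0.97 and -1.39, and no member ORF or promoter passed the test there (0.0639% of all ORFs were called lower); at an unadjusted p under 0.05, 12 ORFs were lower and none higher (2.28% and 0.719% of all ORFs), and 7 promoters were lower and 2 higher (1.9% and 1.78% of all promoter probes). With the set as a block 2 promoters fell in the deletion, TPS2 and RTS3. The difference in response between the strains passed the test at no member promoter or ORF; at an unadjusted p under 0.05, 4 promoters had a higher and 1 a lower difference in the deletion (1.07% and 0.523% of all promoter probes). Between T60 and T0 in wild type none passed it, and at an unadjusted p under 0.05, 18 member ORFs were lower at T60 and 3 higher (2.73% and 1.07% of all ORFs), beside 18 and none at T300 (4.33% and 0.99%). Between T300 and T900 in wild type no probe of the whole array passed the test, while 12 promoters and 17 ORFs of members were lower at T300 at an unadjusted p under 0.05 (2.62% and 2.84% of all) and none was higher (1.33% and 0.687%); with the block TPS2 was called. Between T0 and T900 in wild type no member passed the test (0.0319% of all ORFs were called lower), and at an unadjusted p under 0.05, 4 ORFs were lower and 1 higher (1.88% and 1.47% of all ORFs).

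**Figure D4:**
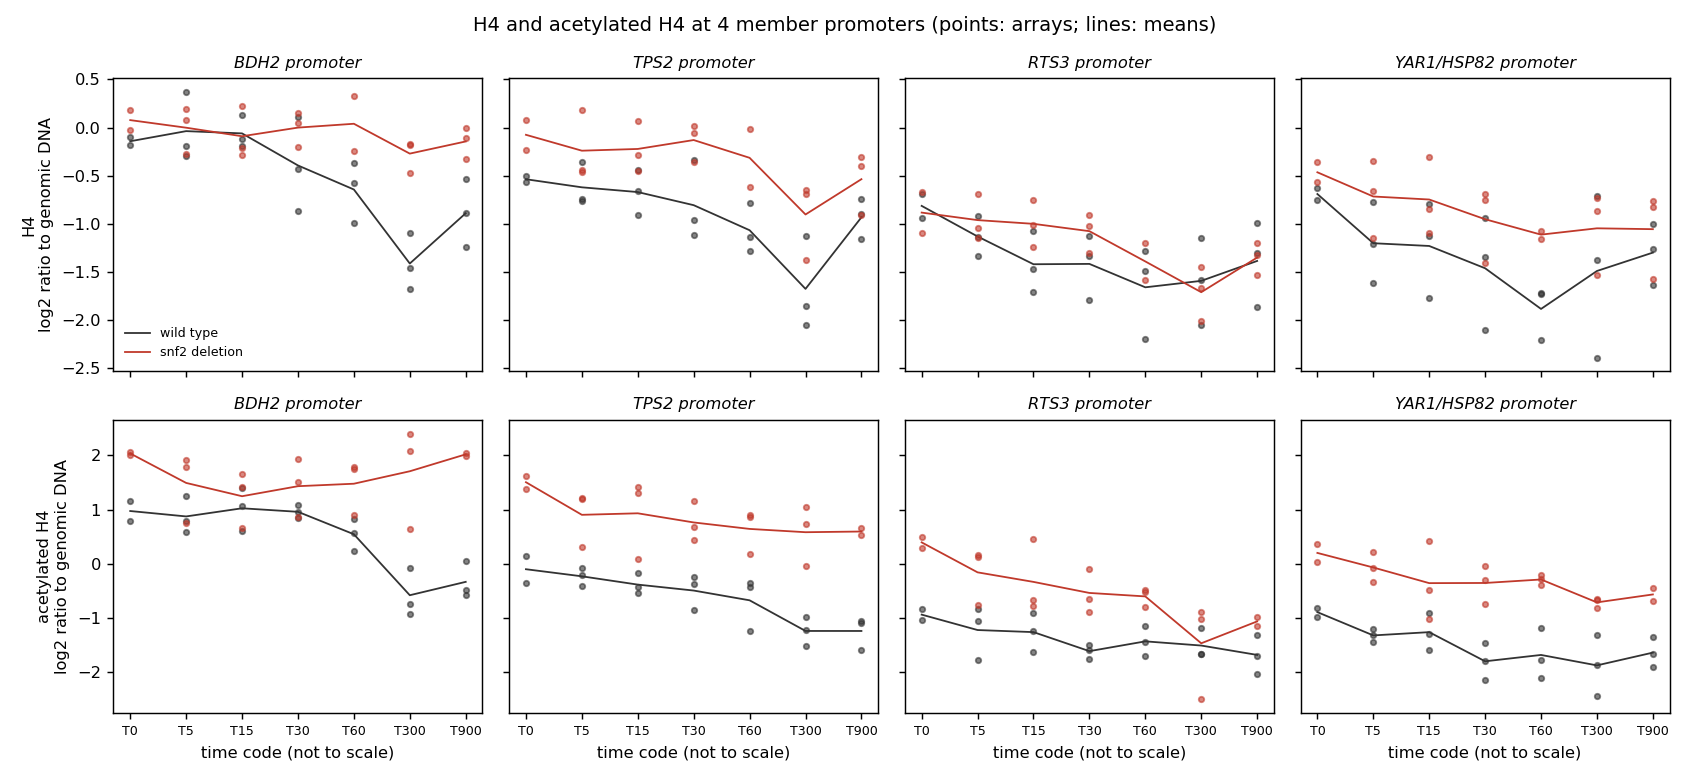
H4 (top) and acetylated H4 (bottom) at the promoters of BDH2, TPS2, RTS3 and YAR1/HSP82 through the time courses, as log2 ratio to genomic DNA with each array centred at 0; points are arrays, lines join the means of 2 or 3 sets, black for wild type and red for snf2 deletion, and time codes are evenly spaced and not to scale. At BDH2 wild-type H4 runs from -0.14 at T0 to -1.41 at T300, while the deletion's runs from 0.08 to -0.27; acetylated H4 is higher in the deletion at all 4 promoters at T0.

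Acetylated H4 differed between the strains before heat shock. At T0 3 of 70 promoters and 3 of 83 ORFs were higher in the deletion and none lower (1.26% of all promoter probes and 0.894% of all ORFs were higher); at an unadjusted p under 0.05, 21 promoters and 25 ORFs were higher and none lower (8.94% and 7.71% of all were higher). TPS2 was at -0.34 and 0.15 in wild type and 1.38 and 1.62 in the deletion, a difference of 1.60 (SE 0.39, adjusted p = 0.0357). FMP48/YGR051C differed by 1.43 (SE 0.36, adjusted p = 0.0469), but a wild-type array (-1.18 and 0.45) stood close to the deletion's 1.39 and 0.74. ALD6 was at -0.77 and -0.08 and 0.99 and 0.72. Over the ORFs FMP48, HXT3 and HXT6 were higher in the deletion, by 1.80, 1.07 and 0.73. The T0 arrays are of sets 2 and 3. For acetylated H4 the labels give these sets of the deletion a genomic DNA reference of the deletion strain, whereas that of wild type was wild-type DNA. As labelled, strain and reference cannot be told apart in this comparison. The SNF2 probe read -2.585 and -2.88 on these deletion arrays and -1.42 and -1.46 on those of wild type. Whether the reference was as labelled was not tested. In the time course the mRNA of FMP48, TPS2 and ALD6 was lower in the deletion before heat shock, at -1.45, -0.95 and -0.84, against -0.27, 0.37 and 0.74 in wild type. On the single array labelled SNF2 deletion at mid-log growth FMP48 and TPS2 were instead higher than in wild type.

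From T0 to T300 acetylated H4 fell in wild type at no member promoter that passed the test and at 1 ORF, GLC3, which went from 0.41 and 0.56 to -0.71, -0.50 and -0.53, a difference of -1.07 (SE 0.20, adjusted p = 0.0179) (0.0476% of promoter probes and 0.0798% of ORFs fell). With the set as a block the BDH2 promoter was called, from 0.79 and 1.15 at T0 to -0.92, -0.74 and -0.08 at T300, and TPS2 at T900. Without replicate 1, 3 promoters were called. In the deletion 1 promoter and 2 ORFs fell (0.38% and 0.495% of all). RTS3 went from 0.50 and 0.29 to -2.50, -1.01 and -0.88, a difference of -1.86 (SE 0.38, adjusted p = 0.0162), and without the set 2 array at T300 whose SNF2 probe lay near wild type the difference was -2.08 (adjusted p = 0.0152). The 3 values at T300 were all below those at T0, but set 1 was far lower than the others. Unlike the T0 arrays, set 1 had wild-type DNA as its labelled reference, and no call was left when any whole set was dropped. The ORFs of TPS2 and YAR1 fell by 1.26 and 1.19. With the block RTS3, RIE1 and YAK1/RPB4 were called. The BDH2 promoter did not pass the test in the deletion, at 2.01 and 2.06 at T0 and 0.64, 2.08 and 2.40 at T300. The difference in response between the strains passed the test at no member, with or without that array; at an unadjusted p under 0.05, 3 promoters had a higher and 2 a lower difference in the deletion (2.83% and 3.59% of all promoter probes).

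Snf2 binding was taken as the ratio of Snf2-bound to input DNA. At 30°C the median of the members' promoters minus that of all promoters was -0.09 ± 0.04 (SD, n = 3), and after heat shock it was 0.19 ± 0.12 (SD, n = 5), with all 5 arrays above 0. At 30°C 4 of 70 promoters were above 0 and 7 below (10.1% and 4.09% of all promoter probes), but without centring 5 were above and 1 below, so the balance at 30°C turns with the centring. MRS4, a mitochondrial iron carrier, was highest, at 1.74, 1.999 and -0.05, and GAP1/KAE1 was at 1.40, 1.24 and 0.69; YML133C and BIM1 were the others. With the set as a block YML133C was the 1 promoter called, and without each replicate in turn the calls ranged from 0, without replicate 2, to 8, against 11 with all arrays. After heat shock 21 promoters (30.0%) were above 0 and 3 below (12.5% and 6.4% of all). YGR210C/ZPR1 went from 0.14, 0.16 and 0.18 at 30°C to 0.98, 1.30, 1.67, 1.46 and 1.10 after heat shock, a mean of 1.30 (SE 0.11, adjusted p = 0.000109). The states did not overlap. YAR1/HSP82 went from -0.12, 0.37 and 0.20 to 0.70, 0.89, 1.62, 1.51 and 0.77, a mean of 1.10 (SE 0.15, adjusted p = 0.0016). RTS3 went from -0.15, -0.40 and -0.49 to 0.60, 0.66, 0.89, 0.99 and 0.50, a mean of 0.73 (SE 0.10, adjusted p = 0.002). YML133C and CIN5/YOR029W were at means of 1.11 and 0.79. YDL242W/AAD4, RHO4/DYN1 and DYN2/SNX41 were below 0, which is the array median. With the set as a block DYN2/SNX41 was not called. Without replicate 3 or without replicate 4 the calls were 10, against 24 with all arrays.

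**Figure D5:**
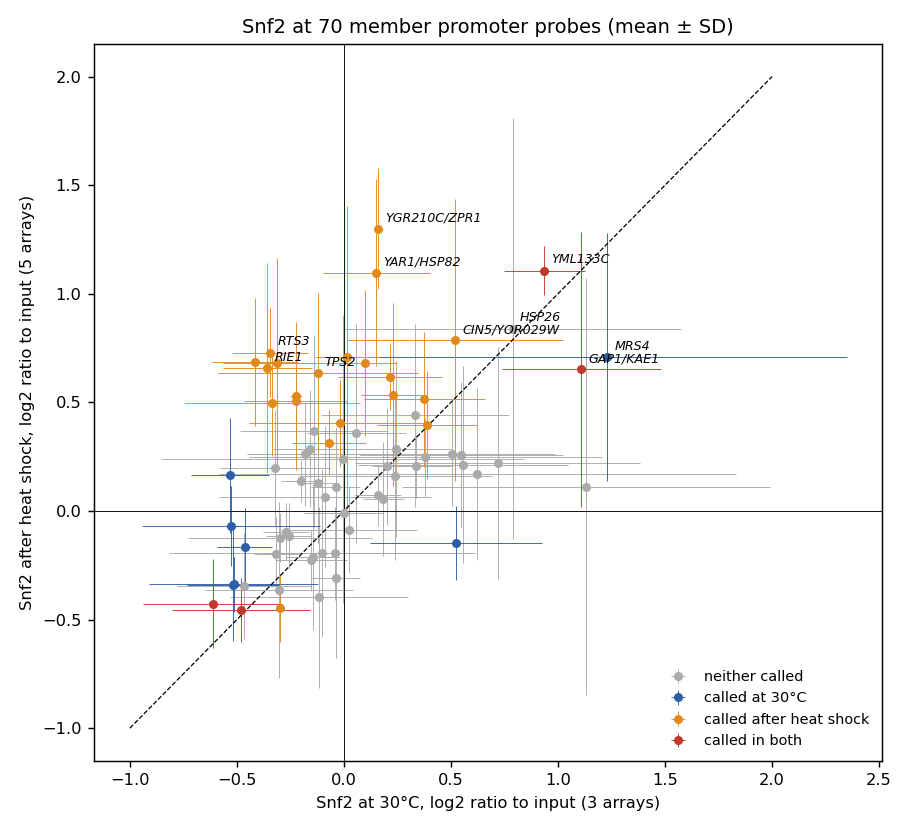
Snf2 at the 70 promoter probes of the members, 30°C on the horizontal axis (3 arrays) and heat shock on the vertical axis (5 arrays), both as log2 ratio of Snf2-bound to input DNA; points are means, bars the SD, colours the calls against 0, and the dashed line marks equal values. YGR210C/ZPR1 and YAR1/HSP82 lie well above the line, at 0.16 and 0.15 on the horizontal and 1.30 and 1.10 on the vertical axis, and MRS4 and GAP1/KAE1 lie below it.

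The change in Snf2 binding between the states passed the test at no member promoter or ORF. At an unadjusted p under 0.05, 19 promoters were higher after heat shock and 1 lower (9.06% and 8.94% of all promoter probes), and 20 ORFs were higher and 3 lower (8.48% and 5.54%). RTS3 and YGR210C/ZPR1 came nearest, with differences of 1.07 (SE 0.17, adjusted p = 0.0532) and 1.14 (SE 0.18, adjusted p = 0.0532). Over the ORFs LEC1 was highest after heat shock, at 1.82, 1.14, 0.68, 0.61 and 1.57, but it was as high at 30°C, at 1.36, 1.80 and 1.68. In all 19 ORFs (22.9%) were above 0 after heat shock and 6 below (12.4% and 10.8% of all ORFs), with HSP26, YGR210C, UGP1 and ZPR1 at means of 0.96, 0.74, 0.73 and 0.64. UGP1 went from -0.10, -0.41 and -0.71 to 0.17, 1.27, 0.93, 0.92 and 0.36. MET17 was lowest, at a mean of -0.84. BDH2, the gene with the widest gap between the strains, showed no call for Snf2, with -0.47, 0.00, 0.25, 0.35 and 0.20 at its promoter after heat shock.

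Some members were called in more than 1 readout. Of the 20 promoters that lost H4 on the direct arrays and the 21 above the array median for Snf2 after heat shock, 11 were the same (55.0% and 52.4%): AIM26, ERO1, GAP1/KAE1, GIS1/YDR095C, MCP1/WTM2, RIE1, RTS3, TPO1, TPS2, YAR1/HSP82 and YGR210C/ZPR1. With the set as a block MCP1/WTM2 was not called for Snf2. Of the 22 members that rose in the deletion from 0 to 300 s and the 19 ORFs above the array median for Snf2 after heat shock, 11 were the same as well (50.0% and 57.9%), ZPR1, TPS2, ERO1, GPD1, UGP1, YAR1 and MPC3 among them. Across members the Spearman correlation was 0.54 between the direct heat-shock change and the deletion's 300 s change in mRNA, and -0.44 between the direct mRNA change and the H4 change over the ORF (83 genes each). It was 0.45 between the deletion's mRNA change and Snf2 binding over the ORF after heat shock. All probes of a readout share the same arrays, so these values describe the members and carry no test. Matching overlaps and correlations over all probes are not given here, for these or for the other shared calls of members. None of them can therefore be called particular to the members.

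Stationary phase, the state of a culture that has run out of nutrients, was the other stress. There 28 of 83 members (33.7%) had more mRNA than in log phase and 9 (10.8%) had less, against 17.8% and 18.1% of all ORFs. HSP26 was at 4.80, 3.19 and 3.71, a mean of 3.90 (SE 0.28, adjusted p = 2.7e-05), and RTS3 at 3.91, 3.73 and 4.02, a mean of 3.89 (SE 0.15, adjusted p = 4.2e-06). ATG39 rose by 2.67, MEP1 by 2.13 and GAP1 by 2.03. HXT2 fell most, with -1.93, -1.32 and -1.81, and AIM26, GSY1, DBP7 and UGP1 fell by 0.96, 0.85, 0.71 and 0.63. Of the 24 members that rose on the direct heat-shock arrays and these 28, 13 were the same (54.2% and 46.4%). Acetylated H4 was higher at 12 of 70 promoters (17.1%) and lower at 6 (8.57%), against 11.7% and 6.66% of all. GIS1/YDR095C rose by 1.17 (SE 0.19, adjusted p = 0.0185) and CLB2 fell by 1.45 (SE 0.30, adjusted p = 0.0302). H4 rose at YFL051C and YML133C, by 1.52 and 0.81 (1.83% of all promoter probes rose). Without replicate 1 the mRNA calls were 22, against 37 with all arrays.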

How the data were processed

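The members, gene lists and comparisons were chosen with earlier results of these data known. Values are log2 ratios of Cy5 to Cy3 as deposited by the authors; base 2 was read from the values, and the sources used here give no scanner, normalization or probe filter. The authors put the stressed sample in Cy5 on the direct arrays, per the labels, and no dyes were swapped. Each expression array was centred on its ORF probes and each chromatin array on all probes (medians as deposited -0.14 to 0.26); 10 probes lacked a value somewhere, none of a member. The number of arrays limits the precision, and replicate arrays correlated between 0.22 and 0.92. limma 3.58.1 in R 4.3.3 (Python 3.11.15 for the rest) tested the ORF probes of the expression arrays and all probes of the chromatin arrays. The Benjamini-Hochberg adjustment, at 0.05, ran over all probes tested in a comparison. On chromatin arrays promoter and ORF probes were thus tested together and only counted apart. Direct comparisons were tested against 0, and each time course had a mean per strain and time with 1 shared spread. For mRNA on the direct heat-shock arrays limma used the same spread for every probe, so SDs are printed there. The 2 H4 arrays of set 2 in the same strain and time were averaged. Genes were named by a rule: the 15 members with the largest smaller difference, the 3 nearest the threshold on each side, the 5 called members with the largest rise and the 5 with the largest fall per comparison, the 5 with the widest gap between strains at 300 s in each direction, up to 4 members of each gene list that held 2 or more, and check genes. A gene named outside it was chosen after its values were seen. Same-numbered sets deviated together in the time courses of H4 (correlations 0.16 to 0.47) and acetylated H4 (0.38 to 0.58) and, more weakly, for Snf2 (0.11 to 0.19, where for sets 2 and 3 another number correlated better, at 0.38 and 0.51). All were above 0.1, so these sets were taken as paired. The main fits nevertheless leave the set out, and their SEs, adjusted p-values and calls ignore this pairing. Values with the set as a block, an alternative fit, are given where they changed a call. Alternatives were no centring, scaling by the median absolute deviation, other thresholds of the rule and leaving out each replicate. The pipeline was tested on simulated data. Probe sequences and promoter coordinates were not used here.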

Additional observations from a re-analysis of the deposited data

Results flagged for a closer look

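At the promoter shared by RHO4 and DYN1, Snf2 after heat shock read -0.40, -0.37, -0.36, -0.72 and -0.38, so 1 array stood apart. The lowest, at -0.7223, lay far enough from the next that the gap covered 0.878 of the whole range, where 0.71 is Dixon's limit for 5 samples. This promoter was among the 3 called below the array median. It was the single such case among 20 quantities tested on the same 5 Snf2 arrays, and chance gives about 1 in 20.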

How the results depend on the processing

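Changing the rule's threshold to 0.8 or 1.2 gave 144 or 52 members, and leaving out an array gave 74 to 101, against 83. Of 182 alternative counts over 25 results, 139 stayed within 1.5 times the original. Several of these results had 0 calls to begin with, and staying at 0 was counted among the 139. Of 92 results for single members, 54 stayed past the threshold under every alternative and none turned its sign. Scaling by the median absolute deviation lowered the snf2 deletion's 300 s mRNA calls from 22 to 4 and the acetylated H4 call in the deletion from 1 to 0, and gave 2 calls for the change in Snf2 binding. Without centring, promoter calls were 2 for H4 and 1 for acetylated H4 in wild type from T0 to T300, and 6 for Snf2 at 30°C (5 above 0 and 1 below, against 4 and 7). The replicate block gave 0 calls for H4 against genomic DNA, where same-numbered sets did not deviate together (-0.14 to 0.18 over these arrays). With this block the paired courses gave 5 calls for H4 in wild type from T0 to T300, 1 from T900 to T300 and 2 in the deletion. For acetylated H4 it gave 1 at T300 and 1 at T900 in wild type and 3 in the deletion, and for Snf2 at 30°C it gave 1. The block changed no other count by over 1.5 times, and the shares of all probes called with it are not given here. Leaving out each replicate gave 19 to 42 calls for heat-shock mRNA, 7 to 23 for the deletion's 300 s mRNA and 22 to 35 for stationary phase. It gave 14 to 35 promoters and 13 to 35 ORFs for H4 on direct arrays, 17 to 30 promoters for acetylated H4, 0 to 2 and 3 to 7 for H4 and acetylated H4 against genomic DNA. In the time courses from T0 to T300 it gave 0 for H4 and 0 to 3 for acetylated H4 in wild type. For acetylated H4 in the deletion no call was left without any whole set, and 1 was left without the set 2 array at T300 alone. For Snf2 it gave 0 to 8 at 30°C and 10 to 29 after heat shock. Fewer arrays leave fewer residual degrees of freedom; other causes of these shifts were not tested. The alternatives without the deletion's set 2 array at T300 were chosen after seeing the data. For the mRNA time course and the direct comparisons no paired analysis was possible, because the 300 s mRNA arrays carry no set number and each direct comparison is 1 group.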

Other observations

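Single arrays of 3 other chromatin remodelling ATPases held values for the same genes, with no replicate. The deleted genes read -3.15 (CHD1), -2.60 (ISW1) and -2.30 (ISW2) at mid-log growth in their deletions. At 39°C ISW1 and ISW2 read -2.17 and -1.80, but CHD1 read -0.41 on the array labelled CHD1 deletion, which goes against that label. At mid-log growth 23 of the 83 members were 1 or more higher on the log2 scale in the CHD1 deletion than in wild type, 14 in the ISW1 deletion and 12 in the ISW2 deletion, where 10.7%, 3.29% and 2.83% of all ORFs were. In the same order 10, 5 and 6 members were 1 or more lower, where 8.1%, 2.84% and 3.61% of all ORFs were. GSY1 was at 3.38, HXT6 at 3.05 and GPD1 at 2.85 in the CHD1 deletion. TPS2 was between 1.28 and 2.43 on the arrays of all 4 deletions at mid-log growth, SNF2 included. At 39°C against wild type HXT6 was at 1.28 and 0.89 in the deletions of ISW1 and ISW2, at 1.07 on the array labelled CHD1 deletion, and at -1.43 in the SNF2 deletion. BDH2 at 39°C against 30°C was at 1.54, 2.03 and 3.08 on the arrays labelled CHD1, ISW1 and ISW2 deletion, and at 0.90 on that labelled SNF2 deletion.

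MET17 read between -4.04 and -3.06 on all 8 arrays labelled as a deletion against wild type, at either temperature. In the time course the same gene was at 0.47 and 0.21 before heat shock on the arrays labelled snf2 deletion, and at -0.32 and -0.39 in wild type. On the single array of wild type at 39°C against 30°C it was at -2.35. On the 3 direct heat-shock arrays it was at -0.05, -0.23 and -0.59.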
